A study of Mus musculus with 2 samples.

Results

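The 10 genes described here carry out MHC class I antigen presentation: H2-K1, H2-D1, B2m, Tap1, Tap2, Tapbp, Psmb8, Psmb9, Erap1 and Nlrc5. They were chosen by symbol for their known roles, and all 10 were found among the 27998 genes of the deposited tables. Their unique molecular identifiers (UMIs, 1 per captured RNA molecule) were taken from every barcode with more than 500 detected genes. The rule uses no measured value, but the list was drawn up with earlier results of these data known. In the tumor cells of TKO1, 9 of the members had at least 4.94 times the CPM found in the tumor cells of TKO2. CPM are UMIs scaled to 1e6 UMIs per cell class. Among all 12848 genes compared, 31.0% were at least 2-fold higher in TKO1. Macrophage-like cells of both tumors carried nearly equal summed levels of the members.

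The study profiled small cell lung cancer of triple knockout mice by single-cell RNA-seq, with 1 tumor from each of 2 mice and 1 10x Chromium library per tumor. Both mice were Rb-/-; Trp53-/-; Rbl2-/- and carried a Rosa26 membrane-Tomato or membrane-GFP allele, on a background mixed from the strains C57BL/6, 129/SVJ and 129/SvOla. They were 8 to 9 months old, and the tumors were taken from the lung 7 months after Adeno-CMV-Cre had been given. The groups TKO1 and TKO2 thus share genotype, agent and time and differ by mouse, tumor and library, which cannot be told apart, and no untreated lung was included. Cre was driven by the CMV promoter, which is not restricted to one lung cell type, and cells that exclude DAPI were sorted, so normal lung and immune cells of the dissected piece could enter the libraries. With 1 library per group there is no test and no p-value, and every interval below is an exact 95% interval for counting error only.

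MHC class I molecules show peptides from inside a cell to CD8 T cells. Proteins are cut by the proteasome, of which the immunoproteasome subunits replace constitutive ones under interferon, the TAP transporter moves the peptides into the endoplasmic reticulum, ERAP1 trims them, and tapasin helps load them onto a heavy chain paired with beta-2 microglobulin. Small cell lung cancer is known as a tumor type in which class I levels are often low, and interferon and the transactivator NLRC5 are known to raise the transcription of most of these genes.

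7 of the 10 members lie on chromosome 17 of GRCm38, within a span from 33915899 to 35267499 that covers part of the mouse major histocompatibility complex. The heavy chain genes H2-K1 (ENSMUSG00000061232, minus strand, 33996017 to 34000347) and H2-D1 (ENSMUSG00000073411, plus strand, 35262730 to 35267499) lie near its ends. Between them stand Psmb9 (34181987 to 34187764), Tap1 (34187553 to 34197225), Psmb8 (34197721 to 34201454) and Tap2 (34203527 to 34216321), in that order and nearly without gaps. Tapbp lies from 33915899 to 33929292 on the same chromosome. Outside it are B2m on chromosome 2 (122147686 to 122153083), Erap1 on chromosome 13 (74639568 to 74693201) and Nlrc5 on chromosome 8 (94434356 to 94527272).

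Promoter windows of 300 bases, from 250 bases before to 50 after the start site, were read from RefSeq (GRCm38.p6) for 8 of the 10 members. Those of Tap2 and Nlrc5 were not used here. Capitals mark matches, on either strand, to letters searched for after the windows had been seen: the kappa-B site of the class I enhancer, given here by its name, GAANNGAAA and a form of it that is 1 A longer before the gap, both forms of the interferon response element, and TGACGC, the core of the X2 box. The windows below are those of both heavy chains, of the light chain and of 2 members of the processing chain, Tap1 and Erap1. The windows of Psmb8 and Psmb9, which had the widest differences between the tumors, and of Tapbp held none of these letters and are not shown.

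H2-K1, chr17:34000284-34000583, minus strand: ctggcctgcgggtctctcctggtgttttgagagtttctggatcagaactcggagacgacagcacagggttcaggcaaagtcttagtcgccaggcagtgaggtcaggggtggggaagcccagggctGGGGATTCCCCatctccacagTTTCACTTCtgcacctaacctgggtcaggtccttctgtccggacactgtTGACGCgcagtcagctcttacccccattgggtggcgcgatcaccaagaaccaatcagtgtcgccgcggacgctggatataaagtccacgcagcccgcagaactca
H2-D1, chr17:35262844-35263143, plus strand: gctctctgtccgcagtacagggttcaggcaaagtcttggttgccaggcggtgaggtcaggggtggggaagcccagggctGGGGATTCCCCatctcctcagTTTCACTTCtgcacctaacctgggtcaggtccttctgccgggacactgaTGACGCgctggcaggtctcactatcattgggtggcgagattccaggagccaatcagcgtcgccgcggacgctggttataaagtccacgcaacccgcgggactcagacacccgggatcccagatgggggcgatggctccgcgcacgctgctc
B2m, chr2:122147437-122147736, plus strand: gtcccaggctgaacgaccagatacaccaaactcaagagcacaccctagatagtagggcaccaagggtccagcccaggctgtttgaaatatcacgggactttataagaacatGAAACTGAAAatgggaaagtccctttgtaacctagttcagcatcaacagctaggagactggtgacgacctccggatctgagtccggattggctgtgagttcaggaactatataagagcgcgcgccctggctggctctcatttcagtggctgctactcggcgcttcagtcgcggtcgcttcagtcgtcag
Tap1, chr17:34187306-34187605, plus strand: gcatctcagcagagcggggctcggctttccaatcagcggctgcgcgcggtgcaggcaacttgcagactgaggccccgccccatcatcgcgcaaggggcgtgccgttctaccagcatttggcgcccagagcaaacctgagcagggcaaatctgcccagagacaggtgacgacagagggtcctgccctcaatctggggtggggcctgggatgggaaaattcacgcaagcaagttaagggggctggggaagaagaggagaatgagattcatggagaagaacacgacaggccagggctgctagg
Erap1, chr13:74639603-74639902, plus strand: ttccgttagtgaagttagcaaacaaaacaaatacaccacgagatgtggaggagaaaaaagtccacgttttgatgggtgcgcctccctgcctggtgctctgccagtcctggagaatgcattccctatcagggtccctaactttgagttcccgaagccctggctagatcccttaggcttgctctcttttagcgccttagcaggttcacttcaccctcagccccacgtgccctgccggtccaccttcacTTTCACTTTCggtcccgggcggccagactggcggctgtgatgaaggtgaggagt

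The kappa-B letters were found in the windows of H2-K1 and H2-D1 and in 0.0304% of all 32851 promoter windows of the same length. That share is 10 windows and includes those of H2-K1 and H2-D1. Since the letters were chosen after these windows had been seen, it is no test of the match. One of the interferon response forms was found in 4 members (H2-K1, H2-D1, B2m and Erap1) and in 10.4% of all windows, and the forms did not overlap another motif in these members. TGACGC was found for H2-K1 and H2-D1 (7.4% of all windows). None of these letters stood in the window of Tap1, of Psmb9, with which it shares a divergent promoter, of Psmb8 or of Tapbp. The RefSeq windows of H2-D1, Erap1, Psmb8, Psmb9 and Tapbp lie inside the gene positions given above, which come from GENCODE. An absence thus covers only the window read, and sequence at other start sites was not searched. A match is a description of the letters and says nothing about binding in these cells.

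The libraries held 5285038 UMIs over 4514 barcodes (TKO1) and 8291430 UMIs over 3816 barcodes (TKO2). The filter kept 3193 and 3568 barcodes, with medians of 1223 and 1960 UMIs, and 11 of the kept barcode sequences occurred in both libraries. Clusters were named from marker genes. In TKO1, 2620 cells in 7 clusters were neuroendocrine-like, 105 were club-like and 98 macrophage-like. The 370 cells of cluster 4 stayed unnamed because ciliated cell markers were among their leading genes while they also carried neuroendocrine markers. In TKO2, 3381 cells in 8 clusters were neuroendocrine-like and 121 macrophage-like, and the 66 cells of cluster 9 stayed unnamed because they carried club and neuroendocrine markers together. The neuroendocrine-like cells are called tumor cells below. Summed over 18 neuroendocrine markers they had 23455 CPM in TKO1 and 2095 CPM in TKO2. Calca alone gave 17077 and 17.5 CPM of these sums, and Uchl1, Dll3 and Stmn2 were higher in TKO2 (507, 101 and 67.7 CPM) than in TKO1 (277, 64.5 and 0.531 CPM). Ribosomal protein genes took 10.6% of the tumor cells' UMIs in TKO1 and 23.1% in TKO2, and a total without mitochondrial and ribosomal protein genes left the counts of members at least 2-fold apart between the tumors' tumor cells, and against macrophage-like and club-like cells, as they were.

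The first comparison asks whether the tumor cells of both mice carried the pathway alike. Of the 9 members with at least 10 UMIs over both tumors, 9 had at least 2-fold more CPM in TKO1 and 0 in TKO2. Among all 12848 genes compared in this way, 31.0% were at least 2-fold higher in TKO1 and 12.0% at least 2-fold higher in TKO2. The median log2 ratio of the members was 4.51, against 0.37 for all genes, and the median relative to all genes was 4.14. Members stood between the 88.6th (B2m) and the 98.5th (Psmb8) percentile of the ratios of all genes.

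The heavy chains bind the peptide and are what CD8 T cells read. H2-K1 had 399.7 CPM (379.7 to 420.4, 1505 UMIs) in the tumor cells of TKO1 and 24.1 CPM (20.8 to 27.8, 187 UMIs) in those of TKO2, a log2 ratio of 4.05 (3.83 to 4.28). H2-D1 had 2196 CPM (2149 to 2244, 8270 UMIs) and 195 CPM (186 to 205, 1516 UMIs), a log2 ratio of 3.49 (3.41 to 3.57). TKO1 was thus higher for both, by 16.6-fold and 11.2-fold. These genes are close copies of each other, so that reads matching both may have been dropped or split by the counting. Their sum, which a split would leave in place, was 2596 CPM in TKO1 and 219 CPM in TKO2, or 11.8-fold higher in TKO1. H2-D1 took 84.6% (83.9 to 85.3) of the UMIs of the pair in the tumor cells of TKO1 and 89.0% (87.4 to 90.5) in those of TKO2.

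B2m encodes the light chain without which heavy chains do not reach the surface. It had 604 CPM (579 to 629, 2273 UMIs) in TKO1 and 122 CPM (115 to 130, 948 UMIs) in TKO2, a log2 ratio of 2.31 (2.20 to 2.42). This 4.94-fold difference was the smallest among the 9 members, and its interval lay apart from the intervals of both heavy chains.

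The peptide loading genes were rare in the tumor cells of TKO2. Tap1, a subunit of the peptide transporter, had 18.9 CPM (71 UMIs) in TKO1 and 0.515 CPM (4 UMIs) in TKO2, a log2 ratio of 5.19 (3.77 to 7.11). Tap2, its partner subunit, had 34.5 CPM (130 UMIs) and 1.03 CPM (8 UMIs), a log2 ratio of 5.07 (4.04 to 6.31). Tapbp, which encodes tapasin, had 58.7 CPM (221 UMIs) and 2.58 CPM (20 UMIs), a log2 ratio of 4.51 (3.85 to 5.25). The intervals of these 3 genes overlapped, so their ratios were not told apart at this depth.

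Psmb8 and Psmb9 encode immunoproteasome subunits. Psmb8 had the widest difference of the members, with 226 CPM (211 to 242, 852 UMIs) in TKO1 and 1.42 CPM (0.708 to 2.54, 11 UMIs) in TKO2. Its log2 ratio was 7.32 (6.47 to 8.33), or 160-fold. The 11 UMIs of TKO2 lie within the range that macrophage markers reach as free RNA in these cells, so this ratio, like the other values of Psmb8 that rest on them, is the measured one with no free RNA removed. Psmb9 had 69.6 CPM (61.4 to 78.5, 262 UMIs) and 1.42 CPM (11 UMIs), a log2 ratio of 5.62 (4.75 to 6.64). Between these neighbours the intervals overlapped only from 6.47 to 6.64.

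Erap1, the trimming peptidase, had 12.5 CPM (47 UMIs) in TKO1 and 1.29 CPM (10 UMIs) in TKO2, a log2 ratio of 3.28 (2.27 to 4.43). Nlrc5, the transactivator, was captured as 1 UMI in the tumor cells of TKO1 and as 0 UMIs in those of TKO2, where 0 allows up to 0.387 CPM at a limit of 3 UMIs. No difference in Nlrc5 was detectable at this depth.

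**Figure D1:**
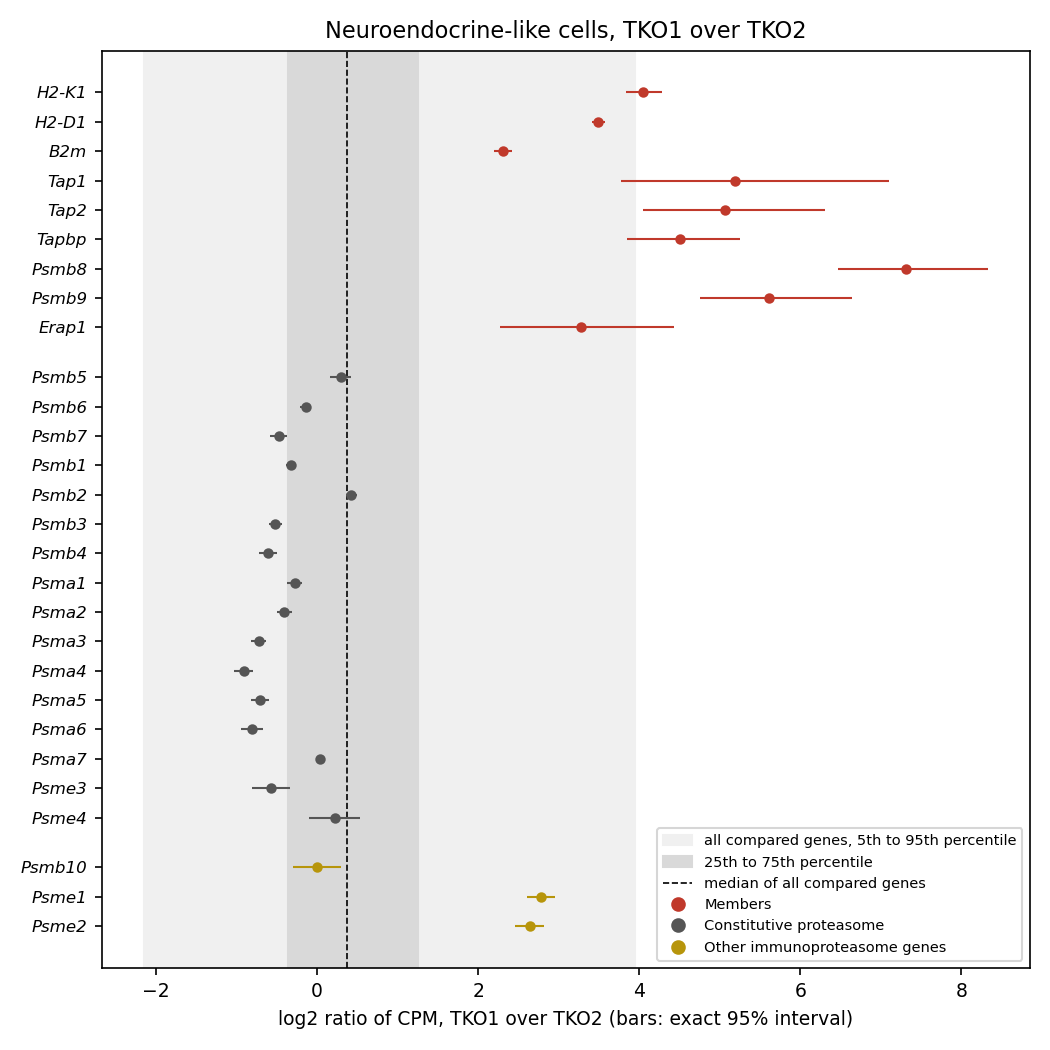
The log2 ratio of CPM (TKO1 over TKO2) in neuroendocrine-like cells is plotted on the x axis for 9 members (red), 16 constitutive proteasome genes (gray) and the 3 other immunoproteasome genes (yellow), with bars for the exact 95% interval, bands for the percentiles of all 12848 genes and a dashed line at their median. The members run from 2.31 (B2m) to 7.32 (Psmb8), while all 16 constitutive genes lie between -0.91 and 0.42.

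Genes that assist the members but are not specific to class I differed little in CPM. Of the 16 constitutive proteasome genes, 0 were at least 2-fold higher in either tumor, and their median log2 ratio was -0.44, from -0.91 (Psma4) to 0.42 (Psmb2). Relative to all genes, as the members were given, this median was -0.81, on the side of TKO2. The chaperones Calr, Canx and Pdia3, which fold many glycoproteins, had log2 ratios of -0.20 (-0.32 to -0.08), 0.46 (0.30 to 0.61) and 0.70 (0.59 to 0.80). In contrast, Tapbpl, a relative of tapasin, had 31.9 and 2.96 CPM and a log2 ratio of 3.43 (2.77 to 4.14). The proteasome activator genes Psme1 and Psme2 had ratios of 2.78 (2.60 to 2.95) and 2.64 (2.46 to 2.82). Psmb10, the remaining catalytic immunoproteasome subunit, had 37.2 CPM in TKO1 and 37.1 CPM in TKO2, a log2 ratio of 0.00 (-0.30 to 0.30).

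The proteasome subunits can also be read as pairs, since Psmb8, Psmb9 and Psmb10 take the places of Psmb5, Psmb6 and Psmb7. Psmb8 held 51.5% (49.1 to 54.0) of the UMIs of Psmb8 plus Psmb5 in the tumor cells of TKO1 and 0.809% (0.404 to 1.44) in those of TKO2. In macrophage-like cells the same share was 84.8% (78.0 to 90.1) in TKO1 and 80.0% (72.8 to 86.0) in TKO2. Psmb9 held 9.77% (8.67 to 10.95) of Psmb9 plus Psmb6 in the tumor cells of TKO1 and 0.200% (0.0998 to 0.357) in those of TKO2. Psmb10 stood apart from both, with 12.0% (10.2 to 14.04) of Psmb10 plus Psmb7 in TKO1 and 8.94% (7.98 to 9.98) in TKO2. Gene lengths and capture differ between partners, so the shares compare cell classes and not subunits.

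**Figure D2:**
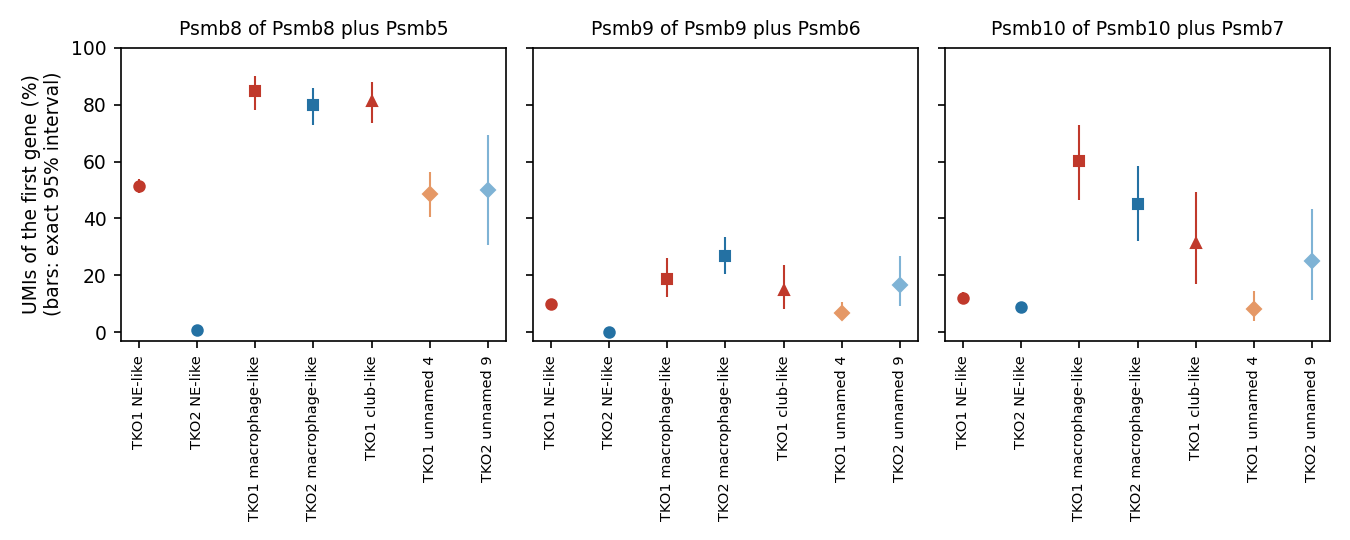
The y axis gives the percent of UMIs of an immunoproteasome subunit among the UMIs of that subunit plus its constitutive counterpart, in each cell class of each tumor on the x axis, with exact 95% intervals as bars (NE, neuroendocrine). Tumor cells of TKO2 sit at 0.809% for Psmb8 and 0.200% for Psmb9, below each other class, but at 8.94% for Psmb10, near the 12.0% of TKO1.

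The other class I heavy chain genes showed the same order as H2-K1 and H2-D1. Of the 13 that are not members, 9 had enough UMIs, of which 8 were at least 2-fold higher in TKO1 and 1 in TKO2. H2-T23, which encodes the nonclassical molecule Qa-1, had 99.3 CPM (374 UMIs) in TKO1 and 3.61 CPM (28 UMIs) in TKO2, a log2 ratio of 4.78 (4.23 to 5.39). H2-Q2 had 81.5 and 1.16 CPM, and H2-M3, which presents formylated peptides, had 15.9 CPM (60 UMIs) and 0.258 CPM (2 UMIs). Cd1d1, a lipid-presenting relative, went the other way, with 3.98 CPM in TKO1 and 14.3 CPM in TKO2 and a log2 ratio of -1.84 (-2.73 to -1.06). Several of these genes are near-copies of one another, and their single counts are uncertain for the reason given above.

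Among 10 further regulators of class I genes, 5 were at least 2-fold higher in TKO1 and 0 in TKO2. Irf1, an interferon-induced activator of the pathway, had 20.7 CPM (78 UMIs) and 1.03 CPM (8 UMIs), a log2 ratio of 4.33 (3.28 to 5.59). The X box factors Rfxap and Rfxank and the kappa-B factors Nfkb1 and Rela had log2 ratios from -0.25 to 0.26, and Rfx5 had 1.00 (0.24 to 1.76). Of 7 interferon receptors and kinases, 4 were at least 2-fold higher in TKO1, among them Jak2 with 11.2 and 1.16 CPM and Ifnar1 with 25.5 and 5.80 CPM. Interferon-induced genes outside the pathway stood with the members, and 20 of the 22 compared, of 28 listed, were at least 2-fold higher in TKO1, with a median log2 ratio of 6.26. Of 7 class II genes, which present to CD4 T cells, none exceeded 17.5 CPM (Cd74 in TKO1) in the tumor cells of either tumor. Of the 4 compared, 3 were at least 2-fold higher in TKO1, with a median log2 ratio of 1.46. Macrophage markers in the same cells were also higher in TKO1, 10 of the 10 compared by at least 2-fold, with a median log2 ratio of 1.65. Whether the class II UMIs came from the tumor cells was not tested. The PRC2 core genes Ezh2, Eed and Suz12 had log2 ratios of -0.69, 0.14 and 0.37, so 0 of 3 passed the 2-fold limit. These lists were assembled with earlier results of these data known, and their counts are a description beside the 31.0% of all genes.

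Neighbouring genes had a median ratio near that of all genes. Within the span of the 7 members on chromosome 17, 52 genes of no list were compared, and their median log2 ratio was 0.23, against 0.42 for 622 such genes of the whole chromosome. Of the 52, 16 were at least 2-fold higher in TKO1 and 6 in TKO2, near the shares of all genes (31.0% and 12.0%).

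The second comparison sets tumor cells beside macrophages, which carry class I at high levels, in the same library. In TKO1, 6 of the 9 members compared were at least 2-fold higher in macrophage-like than in tumor cells, against 12.2% of all 11767 genes (22.7% were at least 2-fold lower). In TKO2, 9 of 9 were at least 2-fold higher, against 16.0% of all 11983 genes (20.0% were at least 2-fold lower). The members' median log2 ratio was 1.10 in TKO1 and 5.46 in TKO2, where the medians of all genes were -0.82 and -0.62.

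The macrophage-like cells of the tumors carried like summed levels of the members, most of which came from H2-D1 and B2m. The 10 members together had 11943 CPM in TKO1 (11383 to 12523, 1708 UMIs) and 11875 CPM in TKO2 (11429 to 12334, 2675 UMIs), a log2 ratio of 0.01 (-0.08 to 0.10). Of the 7 members with enough UMIs, 0 were at least 2-fold apart in either direction, where 14.1% of all 4758 genes were higher in TKO1 and 13.2% higher in TKO2. H2-D1 had 4615 CPM in TKO1 and 4883 CPM in TKO2, and B2m had 4937 and 4954 CPM. Psmb8 differed beyond counting error, with 895 CPM (747 to 1064) in TKO1 and 550.5 CPM (458 to 656) in TKO2 and a log2 ratio of 0.70 (0.33 to 1.07).

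In TKO2 the gap between macrophage-like and tumor cells was wide for the heavy chains, the light chain, the loading genes and the immunoproteasome, and was not resolved for Erap1. H2-K1 had 1061 CPM in macrophage-like and 24.1 CPM in tumor cells, a log2 ratio of 5.46 (5.18 to 5.74), and H2-D1 had a log2 ratio of 4.64 (4.53 to 4.76). B2m was 40.6-fold higher in the macrophage-like cells, with a log2 ratio of 5.34 (5.22 to 5.47). Among the loading genes Tap1 had 6 UMIs (26.6 CPM) and Tap2 13 UMIs (57.7 CPM) in macrophage-like cells, and their log2 ratios were 5.69 (3.62 to 7.96) and 5.81 (4.43 to 7.28). Tapbp had a log2 ratio of 5.37 (4.45 to 6.30). The widest gaps were again those of the immunoproteasome, with a log2 ratio of 8.60 (7.71 to 9.64) for Psmb8 and of 7.32 (6.36 to 8.41) for Psmb9. Erap1 rested on 1 UMI in the macrophage-like cells, so that its log2 ratio of 1.78 had an interval from -3.66 to 4.60. The count of 9 includes this gene, and it was 7 with a filter at 200 genes, 6 with one at 1000 genes and 8 over tumor cells with no macrophage marker UMI. At 200 genes Tap1 had too few UMIs to be compared, and Erap1 had no UMI in macrophage-like cells. At 1000 genes Tap1, Tap2 and Erap1 had too few. The members compared there had log2 ratios from 3.68 (Tapbp) to 8.40 (Psmb8). The shares of all genes under these alternatives are not given.

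In TKO1 the same gaps were narrow and unequal. B2m was the most different, with a log2 ratio of 3.03 (2.91 to 3.15) or 8.18-fold. Psmb8 had 895 CPM in macrophage-like and 226 CPM in tumor cells, a log2 ratio of 1.98 (1.70 to 2.25). H2-K1 had a log2 ratio of 1.49 (1.24 to 1.72) and H2-D1 one of 1.07 (0.95 to 1.19), so that tumor cells of TKO1 held 35.7% and 47.6% of the macrophage-like level of these heavy chains. Tap1 and Tap2 were not told apart between the classes, with log2 ratios of 0.15 (-2.16 to 1.76) and 0.02 (-1.63 to 1.28) that rest on 3 and 5 UMIs in macrophage-like cells. Tapbp had 126 and 58.7 CPM, a log2 ratio of 1.10 (0.32 to 1.79), and Psmb9 had 182 and 69.6 CPM, a log2 ratio of 1.39 (0.74 to 1.97).

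**Figure D3:**
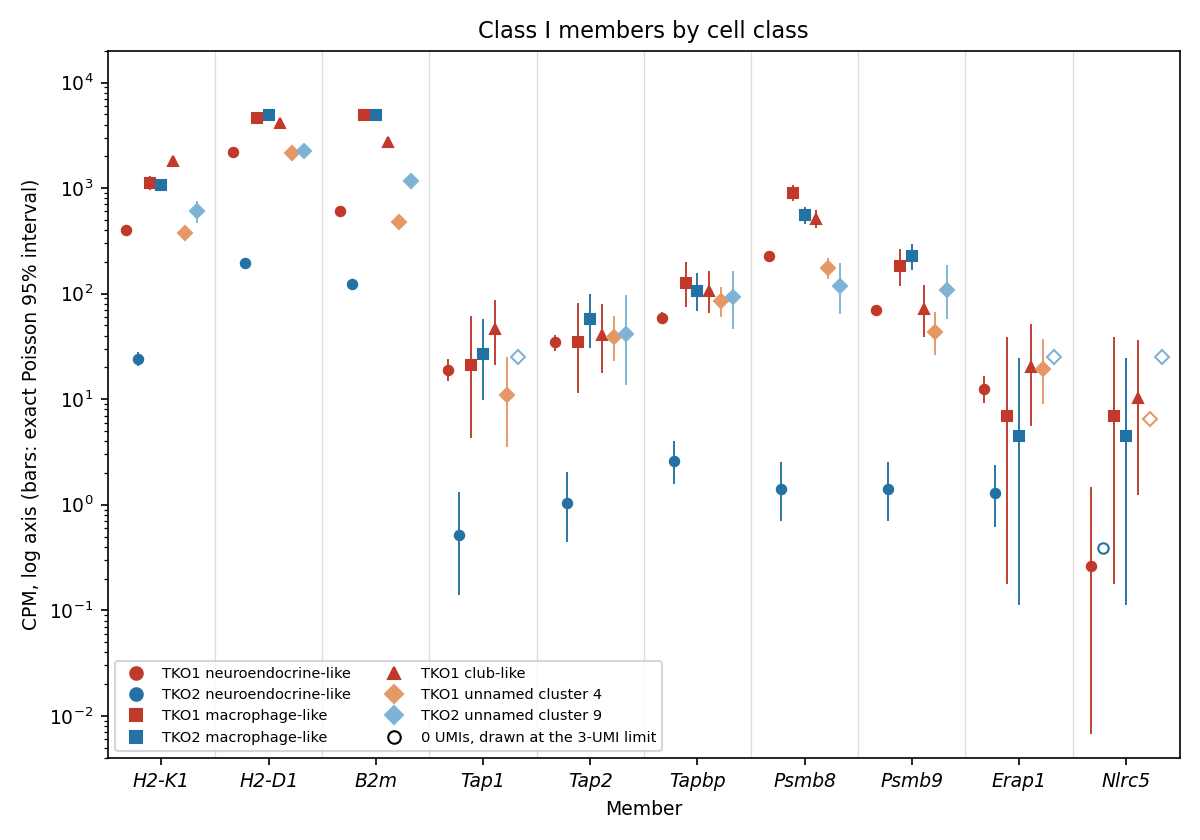
CPM on a log axis is plotted for each of the 10 members (x axis) in 7 cell classes, with bars for the exact Poisson 95% interval and open symbols at the limit of 3 UMIs where 0 UMIs were counted. Tumor cells of TKO2 (blue circles) lie below the other classes for H2-K1, H2-D1, B2m, Tap2, Tapbp, Psmb8 and Psmb9, cluster 9 of TKO2 has only an upper limit for Tap1 and Erap1, and macrophage-like cells of both tumors (squares) lie close to each other for H2-K1, H2-D1 and B2m.

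The macrophage-like class was not pure in either tumor. It held 14 (TKO1) and 16 (TKO2) of 17 macrophage markers at 10 or more UMIs, led by Lyz2 at 20054 and 17886 CPM. T and NK cell markers summed to 406 and 1190 CPM and B cell markers to 69.9 and 169 CPM, and 4 and 13 of its cells had more than 3 lymphocyte marker UMIs. Neutrophil markers summed to 860 CPM (123 UMIs) in TKO1 and 186 CPM (42 UMIs) in TKO2, and 17 and 26 of the cells had fewer than 3 macrophage marker UMIs. Neuroendocrine markers, which macrophages lack, stood in it at medians of 20.1% (7.98 to 43.3 over 16 markers) and 29.8% (12.6 to 431 over 15 markers) of their tumor cell level, the 431% belonging to Calca. When only macrophage-like cells with at least 10 macrophage marker UMIs and no lymphocyte marker UMI were kept, a choice made after seeing the data (75 and 83 cells), 6 members in TKO1 and 7 in TKO2 were at least 2-fold higher than in tumor cells. The number of members compared and the share of all genes are not given for this narrowed class, so these counts have no background beside them.

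In the other direction, free RNA from macrophages left little in the tumor cells. Macrophage markers stood in the tumor cells at a median of 0.0956% (0 to 0.475) of their macrophage-like level in TKO1 and of 0.0470% (0 to 0.281) in TKO2, with Csf1r at 0 in both. The 8 members other than Erap1 and Nlrc5 stood at 12.2% (B2m) to 98.7% (Tap2) in TKO1, above each marker. In TKO2 H2-K1 stood at 2.27% (1.87 to 2.76), H2-D1 at an estimate between 3.70 and 4.33% and B2m at 2.47% (2.26 to 2.69), likewise above each marker. Psmb8 of TKO2, at 0.257% (0.125 to 0.477), lay within the range of the markers but above their median, and the top of that range is Ptprc with 3 UMIs. Whether its 11 UMIs came from the tumor cells was not tested. Psmb9, at 0.626% (0.294 to 1.22), lay just above that range.

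The third comparison sets tumor cells beside club cells, the secretory epithelium of the airway, which were found as a class only in TKO1. There 4 of 9 members were at least 2-fold higher in club-like than in tumor cells, against 8.27% of all 11663 genes (26.5% were at least 2-fold lower). These were H2-K1, B2m, Tap1 and Psmb8. H2-K1 had 1815 CPM (1632 to 2014, 357 UMIs) in club-like and 399.7 CPM in tumor cells, a log2 ratio of 2.18 (2.01 to 2.35). B2m had 2741 CPM (539 UMIs) and also a log2 ratio of 2.18 (2.04 to 2.32). H2-D1 was higher by a smaller factor of 1.88, with a log2 ratio of 0.91 (0.80 to 1.01), so that it took 69.4% (66.7 to 72.0) of the heavy chain UMIs in club-like cells and 84.6% in tumor cells. Tap1 (9 UMIs) had a log2 ratio of 1.28 (0.09 to 2.28) and Psmb8 one of 1.18 (0.87 to 1.48). Tap2, Psmb9 and Erap1 had intervals that held 0, and Tapbp had a log2 ratio of 0.86 (0.14 to 1.51).

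The club-like cells spent much of their RNA on secretory genes, since Scgb1a1 alone had 253810 CPM, which lowers the CPM of other genes, and the median log2 ratio of all genes was -0.81. With TMM factors, which are meant for such shifts, 7 of 9 members were at least 2-fold higher. These factors raise the ratio of every gene alike, as that of H2-D1 from 0.91 to 1.38. The share of all genes at least 2-fold higher with them is not given, so this count has no background beside it. Neuroendocrine markers stood in these cells at a median of 29.4% of the tumor cell level. Alveolar type 2 markers summed to 3117 CPM and alveolar type 1 markers to 1286 CPM, against 48.6 and 6.64 CPM in the tumor cells. The type 2 sum came mostly from Sftpb (421 UMIs) and Sftpd (144 UMIs), while the other type 2 markers had up to 21 UMIs (Slc34a2) and Sftpc had 6. The type 1 sum came mostly from Ager (185 UMIs) and Aqp5 (64 UMIs), and the others had up to 2 UMIs (Hopx). The part of neuroendocrine or alveolar RNA in the members' levels was not tested.

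Cluster 9 of TKO2, with club and neuroendocrine markers, is given by number. Its 66 cells had H2-D1 at 2267 CPM (271 UMIs), H2-K1 at 602 CPM (72 UMIs) and B2m at 1154 CPM (138 UMIs). Set against the tumor cells of TKO2, their log2 ratios were 3.54, 4.64 and 3.24, and 7 of 8 members compared were at least 2-fold higher, against 21.3% of all 11683 genes (8.47% were at least 2-fold lower). Psmb8 had 14 UMIs and Psmb9 had 13 UMIs in these 66 cells, against 11 UMIs each in 3381 tumor cells. Tap1, Erap1 and Nlrc5 had 0 UMIs there, which allows up to 25.1 CPM at 3 UMIs. Erap1, with 10 UMIs in the tumor cells, is the member among the 8 that was not higher, and no fold is given for it, while Tap1 and Nlrc5 had too few UMIs to be compared. This cluster also had Calca at 3907 CPM, where the tumor cells of TKO2 had 17.5 CPM. Cluster 4 of TKO1, the other unnamed group, stood near the tumor cells of its library, with 2144 CPM of H2-D1, 477 CPM of B2m, 379 CPM of H2-K1 and 173 CPM of Psmb8.

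Levels per cell were compared after each cell had been thinned to 1000 UMIs, which left 1892 tumor cells of TKO1 and 3020 of TKO2 (728 and 361 shallower cells were left out). A UMI of H2-K1 or H2-D1 was found in 84.6% (82.9 to 86.2) of the tumor cells of TKO1 and in 17.6% (16.2 to 19.0) of those of TKO2. Without thinning the shares were 89.2% and 29.5%. In macrophage-like cells at the same depth the shares were 92.7% and 92.9%. As a gauge of free RNA, a UMI of any of 17 macrophage markers was found in 3.22% of the tumor cells of TKO1 and in 1.52% of those of TKO2, where the median depths before thinning were 1225 and 1983 UMIs.

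The difference between tumors was seen in the median tumor cell, although the ranges of the tumor cells overlapped. Summed over the 10 members, the median tumor cell had 3 UMIs in TKO1 and 0 UMIs in TKO2, and 9.88% of the cells of TKO1 and 76.6% of those of TKO2 had none. At 10 or more member UMIs were 98 cells of TKO1 (5.18%) and 6 cells of TKO2 (0.199%). The highest 5% of cells held 19.2% of the member UMIs in TKO1 and 46.7% in TKO2. Such a share rises as the mean falls, so it does not compare how evenly the UMIs were spread in the tumors. The Fano factor (variance over mean, 1 for counting error alone) was 3.05 and 2.72, at means of 3.54 and 0.375 UMIs per cell. Across tumor cells, member UMIs and macrophage marker UMIs had correlations of 0.05 (TKO1) and 0.02 (TKO2), which share library and depth.

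B2m was detected in 31.9% (29.8 to 34.1) of the tumor cells of TKO1 and in 8.71% (7.73 to 9.77) of those of TKO2. Psmb8 was detected in 17.9% (16.2 to 19.7) and in 0.0993% (0.0205 to 0.290), and Tapbp in 5.66% and 0.397%. Nlrc5 was found in 0 of 1892 and 0 of 3020 thinned cells, which allows shares of up to 0.159% and 0.0993% of cells with a UMI.

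**Figure D4:**
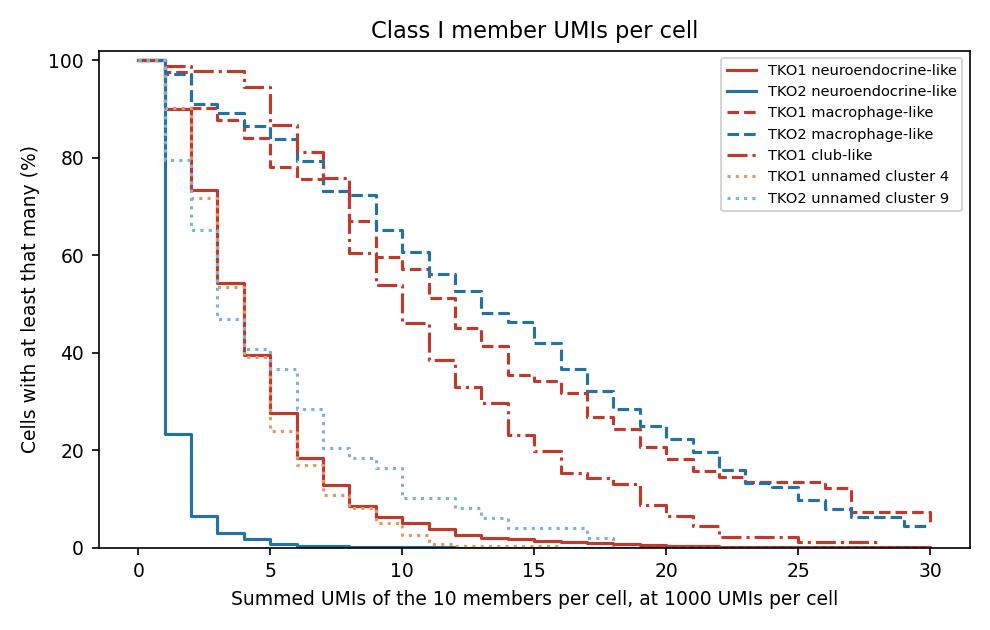
The y axis gives the percent of cells with at least the number of member UMIs on the x axis (summed over the 10 members, each cell thinned to 1000 UMIs), for tumor cells (solid), macrophage-like (dashed), club-like (dash-dotted) and unnamed cells (dotted) of TKO1 (red, orange) and TKO2 (blue). In TKO2, 23.4% of tumor cells have any member UMI, against 90.1% in TKO1, while the macrophage-like curves of both tumors run close together.

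Among the clusters of TKO1 one stood above the rest. Cluster 3 (382 cells), led by Ttr, Anxa1, Ifi27l2a and Ifitm3, had 6467 CPM (6241 to 6698) over the 10 members, and the other 6 tumor clusters had 2912 to 3489 CPM. It had H2-D1 at 3628 CPM, where the next cluster had 2214 CPM, B2m at 1500 CPM against 645 CPM and H2-K1 at 731 CPM against 411 CPM. Tap1, Psmb9 and Erap1 did not follow this order. They were highest in cluster 0 (26.2 CPM), cluster 5 (89.4 CPM) and cluster 2 (22.9 CPM). Only 2 of the members were among the variable genes used for clustering in TKO1, and with all listed genes left out a cluster with Tspan8, Anxa1 and Ttr among its 10 leading genes stood highest, at 6732 CPM against 3906 CPM for the next. In TKO2 the 8 tumor clusters ran from 284 to 509 CPM, and the highest, cluster 2, had H2-D1 at 333 CPM. There 5 of the members were among the variable genes, and with all listed genes left out the 8 tumor clusters ran from 292 to 496 CPM. No tumor cluster of TKO2 reached the lowest of TKO1. The same cells and UMIs gave the clusters and their levels, which are therefore described without a test.

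**Figure D5:**
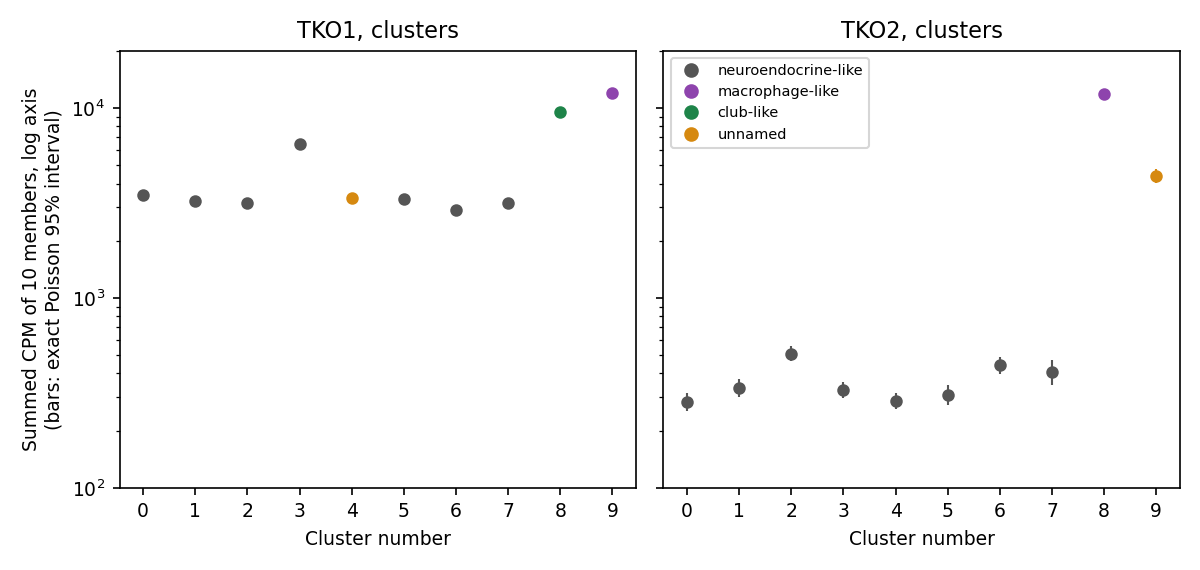
Summed CPM of the 10 members (log axis) is plotted for each cluster of TKO1 (left) and TKO2 (right), colored by cell class, with exact Poisson 95% intervals that are mostly smaller than the symbols. The tumor clusters of TKO1 lie between 2912 and 6467 CPM and those of TKO2 between 284 and 509 CPM.

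The genes whose UMIs went most closely with the summed members from cell to cell were ranked by Pearson correlation, over 3554 genes in 1892 tumor cells of TKO1 and 2941 genes in 3020 of TKO2. In TKO1 the 10 highest were Ifi27l2a (0.26), Calca (0.19), Ifitm3 (0.17), Junb (0.16), Resp18 (0.15), Ly6e (0.13), Nfkbia (0.13), Anxa1 (0.12), Ifi27 (0.12) and Fos (0.11), where the median over all genes was 0.00. Of these, Ifi27l2a, Ifitm3, Ly6e and Ifi27 belong to the interferon-induced list, of which 7 genes were frequent enough to be ranked. In TKO2 the highest was Cd9 at 0.11, followed by Serpine2 (0.09), Ptn (0.08) and Nov (0.07), and no interferon-induced gene was frequent enough there. Between members, the highest correlation in TKO1 was that of H2-D1 and B2m (0.30), which was 0.25 in TKO2. The highest in TKO2 were Tap1 with Psmb8 and Tap1 with Psmb9 (both 0.49) and Psmb8 with Psmb9 (0.33). These had 4 UMIs of Tap1 and 11 each of Psmb8 and Psmb9 before thinning. After thinning, which the correlations use, 2 of the 3020 cells had a UMI of Tap1. For Psmb8 and for Psmb9 it was 3 cells each, so these values rest on single cells. In counts this sparse such values are weak, the cells of a tumor share a library, and they are given as a description.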

How the data were processed

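Single-cell RNA-seq of 2 tumors, each 1 library of 1 mouse, was analysed. The deposited matrices hold UMI counts per gene and barcode, made by the authors with Cell Ranger on mm10, and the submitters' processing notes also name Seurat. Versions and the gene annotation are not given in the sources used here. Barcodes with more than 500 genes and under 10% mitochondrial UMIs were kept. Each tumor was clustered with Seurat 5.3.0 in R 4.3.3 (genes in 10 cells, 1000 variable genes, 10 components, resolution 0.8). A cluster was named for a type other than neuroendocrine from at least 3 of its markers at 4-fold, where that type led its top 10 genes. If it also had at least 3 neuroendocrine markers at 2-fold over macrophages, it stayed unnamed unless their level was under a set fraction of that in the tumor's other cells. Neuroendocrine-like clusters needed at least 3 markers at 2-fold over macrophages and no other type. Scrublet, in scanpy 1.11.5, called 0 doublets and so did not work as a caller. Cells with scores above the 95th percentile (109 in TKO1 and 127 in TKO2) were left out as an alternative.

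UMIs were summed per class and given as CPM with exact Poisson intervals. Ratios have exact conditional binomial intervals, and shares have Clopper-Pearson intervals, all at 95% and for counting error only. Genes with at least 10 UMIs over both sides were compared, and a side with 0 UMIs was set to 3 UMIs for a bound. Cells were thinned with seed 1. Without replicates no test was run. TMM factors came from edgeR 4.0.16. Other steps used Python 3.11.15, numpy 2.4.6, scipy 1.17.1, pandas 2.3.3 and matplotlib 3.10.9. The ratio step was tested on simulated data for the comparison of tumor cells between TKO1 and TKO2 (12851 genes, 200 changed by a log2 of 1.5). It found 100.0% of the changed genes, and 96.0% of the intervals held the true value. The changed genes were drawn from those with at least 100 UMIs, the counts had counting error only, and found meant an interval without 0. The simulation thus did not try changes in genes as sparse as Tap1, Erap1 and Nlrc5, nor the 2-fold limit used for the counts of members.

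All 10 members are named, with genes of the 10 lists that show a list's range and the 10 non-members whose UMIs were most correlated with the summed members. Members, lists and motifs were chosen with earlier results of these data known. Positions come from GENCODE M21 on GRCm38, matched by gene ID for 27645 genes, and promoter sequences from RefSeq on GRCm38.p6. Some genes of the lists and one motif are not reported here.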

Additional observations from a re-analysis of the deposited data

Results flagged for a closer look

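Erap1 had opposite directions in the tumors when macrophage-like cells were set against tumor cells. Its log2 ratio was -0.84 in TKO1 and 1.78 in TKO2. Each macrophage-like class held 1 UMI of Erap1, both intervals included 0, and the difference between tumors was not tested.

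The barcodes with 500 or fewer genes, which enter no comparison of the report except the alternative filter at 200 genes, also held member UMIs. In TKO1, 1321 such barcodes had 6201 CPM (6021 to 6386) over the 10 members, against 4108 CPM in the retained cells. In TKO2, 248 such barcodes had 3470 CPM (3208 to 3749), against 730 CPM in the retained cells. Lymphocyte markers stood in these barcodes at 348 CPM (TKO1) and 1123 CPM (TKO2), against 35.3 and 39.7 CPM in the retained cells, and macrophage markers at 2841 and 4421 CPM. Their part in the higher member levels was not tested.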

How the results depend on the processing

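No paired analysis was possible because each tumor has 1 library, and for the same reason no replicate could be left out. Of the values under alternatives, 83 kept their direction and stayed within the spread or 1.5 times of the reported value, 11 moved and 0 reversed. Among the former, the count of members higher in macrophage-like cells of TKO2 went from 9 to 7 (more than 200 genes, or the narrowed macrophage-like class), 6 (more than 1000 genes) and 8 (tumor cells without macrophage marker UMIs). With the filters at 200 and 1000 genes, fewer members had enough UMIs to be compared. The shares of all genes are not given for these counts. The count of members higher in TKO1 was 9, and that of members higher in TKO2 was 0, under each alternative run for it. With all retained cells in place of tumor cells, the members' median relative to all genes was 2.91. With TMM factors, which raise the ratios of all genes in club-like cells alike, 7 members were higher there. With the same factors the median of all genes between tumors was -0.02 in place of 0.37. The shares of tumor cells with H2-K1 or H2-D1 were 81.5% (TKO1) and 19.2% (TKO2) with more than 1000 genes, 95.1% and 26.1% at 2000 UMIs, and 89.2% and 29.5% without thinning. Of the 10 correlated genes of TKO2, 0 were again among the 10 highest at 2000 UMIs, 5 without the highest Scrublet scores and 5 in cells without macrophage marker UMIs, where TKO1 gave 8 in each. Directions of single members against macrophage-like or club-like cells turned for Tap1, Tap2 and Psmb9 in TKO1 and Erap1 in TKO2, each on few UMIs. The cause of these moves was not tested. More than 1000 genes left no macrophage-like or club-like class in TKO1, and leaving out clusters led by another type gave no value, since that cluster was already unnamed. Moving the unnamed cluster of TKO1 into the tumor cells and narrowing the macrophage-like class were chosen after seeing the data. Depth limits Nlrc5, Erap1 and Tap1 most.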
